A study of Mus musculus with 22 samples.

Results

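The hearts of mice in which αMHC-Cre removed Ronin were compared with control hearts at 6 weeks of age, when the heart muscle has matured. The arrays were chosen by their labels, as the 2 knockout and the 2 control arrays of this line and age, and they make up 4 of the 22 arrays of the series. Genes were taken from the probes that name 1 gene and that were brighter than the median probe in these 4 arrays, 18991 probes in all. Of 19057 genes with a probe, 11708 were tested.

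The series measured RNA of hearts on Illumina mouse BeadArrays in 5 comparisons of Ronin knockouts with controls, of which 2 used Nkx2.5-Cre and 3 used αMHC-Cre. The control hearts were labelled C57BL/6, MHC::Cre; RoninloxP/+, and had no treatment. The knockout hearts were C57BL/6 and titled and described as MHC knockouts, and MHC::Cre; RoninloxP/loxP is taken as their genotype, although their genotype field names Nkx2.5::Cre, RoninloxP/loxP. Both groups therefore carried Cre and at least 1 floxed Ronin allele, and the contrast was between deletion of both alleles and of 1. The αMHC promoter drives Cre in cardiomyocytes, so the fibroblasts, vessel cells and blood cells of a knockout heart keep the gene. Total RNA of the whole heart was hybridized, so that fewer cells of a type and less RNA per cell cannot be told apart. No label says whether the 2 replicates of a group were separate animals or pools. The limma p-values measure the spread between replicate samples only. That spread was pooled over all groups of the series and not taken from these hearts alone, except where a fit of these arrays alone is named.

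Ronin, encoded by Thap11, is a zinc finger protein that binds a long motif in promoters and recruits the transcriptional cofactor Hcf-1. Its bound genes are known from other cells and include many for mitochondria, the ribosome and general metabolism. The adult heart muscle cell draws most of its energy from fatty acids burned in mitochondria, and an overloaded heart is known to raise natriuretic peptides, fetal forms of actin and myosin, and matrix proteins.

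The arrays had nearly the same median intensity (77.3 to 77.7) and highest intensities of 53147 to 65107. Over the tested genes, the SD between the arrays was 0.26 on the log2 scale for the 2 controls and 0.33 for the 2 knockouts, and 187 genes differed over 2-fold between the controls against 463 between the knockouts. The weight fitted to these 4 arrays was 0.533, the lowest of the 5 comparisons. In both groups the replicate numbers went with a sex marker: Xist, transcribed from the inactive X chromosome, was at 57.5 and 555.8 in controls 1 and 2 and at 58.5 and 688.9 in knockouts 1 and 2, and the Y-linked Eif2s3y ran the opposite way. Marker sums of cardiomyocytes were 431016 and 437426 in the controls and 484523 and 454042 in the knockouts, with none of 14 tested markers called.

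Thap11 itself had an intensity of 1456 in control 1, 1438 in control 2, 289.9 in knockout 1 and 773 in knockout 2. Both knockouts lay below both controls, and knockout 1 had less than knockout 2. The mean difference was -1.61 on the log2 scale (SE 0.40, limma adjusted p = 0.041), or -2.32 in knockout 1 and -0.91 in knockout 2. The position of its probe relative to the deletion is not known, and the signal left in a whole heart includes cells that αMHC-Cre does not reach. The call was lost without control 1 (adjusted p = 0.552), control 2 (0.241) or knockout 1 (0.635).

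In the knockout hearts 84 genes were higher and 123 were lower than in the controls at a limma adjusted p below 0.05, which is 0.717% and 1.05% of the genes tested. The median change was 1.18 on the log2 scale among the higher genes and -1.30 among the lower ones, against 0.016 over all genes, of which 6202 lay above 0 and 5506 below. By the size of the change alone, 118 genes (1.01%) were over 2-fold higher and 160 genes (1.37%) over 2-fold lower with no overlap between the groups. Of the 207 called genes, 0 had overlapping groups. The call itself favors genes whose groups lie apart, so this is no separate support, here or for the called genes named below. The share of all tested genes without overlap was not counted. The call borrows the spread from all 22 arrays: with these 4 arrays fitted alone, limma called 0 genes higher and 0 lower, with 483 and 488 at an unadjusted p below 0.05. The smallest two-sided p that an exact permutation test can give with 2 arrays against 2 is 0.333.

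The 2 knockouts were not changed to the same extent. Knockout 1 was farther from the control mean than knockout 2 in 74 of the 84 higher genes and in 117 of the 123 lower genes, with median changes of 1.44 against 0.95 and of -1.60 against -0.99. Control 2 lay above control 1 in 72 of the higher genes and below it in 97 of the lower genes. Over all tested genes control 2 correlated more closely with knockout 2 (r = 0.9908, across genes) than with control 1 (0.9829), whereas knockouts 1 and 2 had r = 0.9736. Arrays 1 and 2 of each group also differed in the sex markers, and the part of sex in the differences between replicates was not tested. The number of calls followed the array left out. It was 1 higher and 8 lower when control 1 was left out, 55 and 84 for control 2, 29 and 37 for knockout 1, and 393 and 358 for knockout 2. Of the 84 and 123 genes, 1 and 6 were called whichever array was left out: Acta2 among the higher genes, and Bckdk, Phkg1, Rabac1, Thyn1, Acp6 and Coa3 among the lower ones. Of 69 called genes picked for naming, 7 kept the call without control 1, 50 did so without control 2, 33 without knockout 1, and 67 without knockout 2, and none changed direction.

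**Figure D1:**
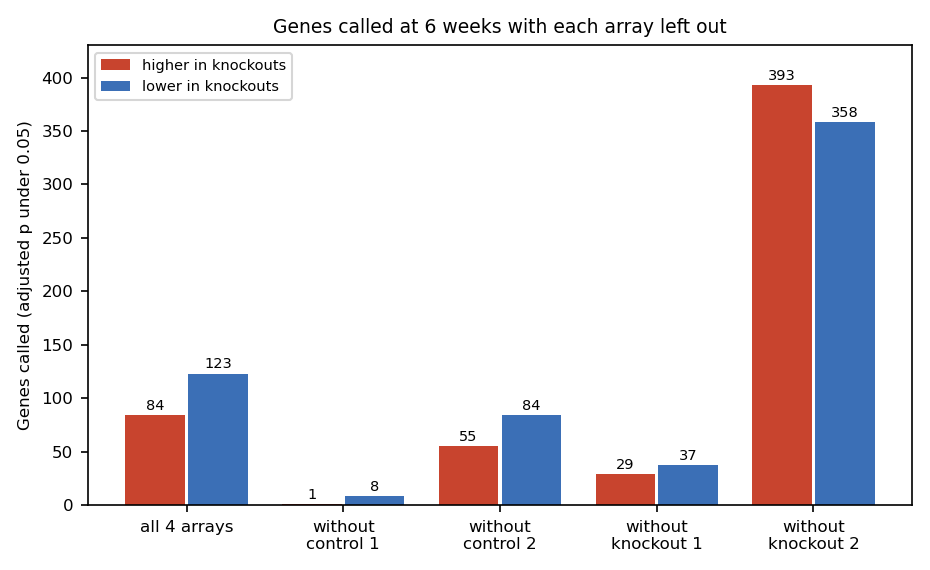
Number of genes called higher (red bars) and lower (blue bars) in αMHC-Cre Ronin knockout hearts at 6 weeks, with all 4 arrays and with each left out in turn (limma, adjusted p below 0.05). The counts fall to 1 and 8 without control 1 and rise to 393 and 358 without knockout 2.

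Among the genes that fell furthest were enzymes of branched-chain amino acids, glycogen and lipids. Bckdk, the kinase that switches off branched-chain keto acid breakdown, had intensities of 3854 and 2511 in the controls and 345 and 646 in the knockouts. Both knockouts lay far below both controls, by a mean of -2.72 on the log2 scale (SE 0.30, limma adjusted p = 6.59e-05), and a second probe gave -2.56. Acad8, the isobutyryl-CoA dehydrogenase of valine breakdown, stood at 1179.5 and 529 in the controls and at 119.5 and 165 in the knockouts (-2.49, SE 0.34, adjusted p = 0.000428), and this call was lost without control 1 (adjusted p = 0.0593).

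Phkg1, the catalytic subunit of muscle phosphorylase kinase, which starts the breakdown of glycogen, gave 698 and 511 in the controls and 84.5 and 154 in the knockouts. Its change of -2.39 (SE 0.21) had the lowest adjusted p of the comparison, 9.8e-06 by limma. Rabac1, a membrane protein that binds prenylated Rab GTPases, fell from 10199 and 11136 to 1689 and 3046 (-2.23, adjusted p = 0.000106), with -2.15 at its other probe. Thyn1, a nuclear protein of little known function, fell from 2184 and 2279.8 to 392 and 676 (-2.12, SE 0.22, adjusted p = 5.95e-05). In each of these genes both knockouts lay below both controls, and knockout 1 was the lowest array.

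Acp6, the mitochondrial lysophosphatidic acid phosphatase, fell from 1236 and 1066 to 241 and 415 (-1.86, limma adjusted p = 0.00034). Coa3, an assembly factor of cytochrome c oxidase, fell from 8388 and 7465 to 2658 and 3084 (-1.47, SE 0.16, adjusted p = 5.95e-05), and its 2 knockout arrays were nearly level. These genes, with Bckdk, Phkg1, Rabac1 and Thyn1, made up the 6 lower calls that held without any array.

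Others among the 15 largest decreases were Rpl3l, Tmod4, Ces1d and Gpr22. Rpl3l, the form of ribosomal protein L3 made in heart and skeletal muscle, stood at 30489 and 21697 in the controls and at 2757 and 12013 in the knockouts (-2.16, limma adjusted p = 0.0105). Its ubiquitous counterpart Rpl3 moved the other way, from 7897 and 9632 to 19068 and 15987 (1.00, adjusted p = 0.000604). The groups did not overlap in either gene, and the knockout with the lower Rpl3l was the one with the higher Rpl3. Without control 1 the adjusted p was 0.331 for Rpl3l and 0.0812 for Rpl3, and Rpl3l was not called without knockout 1 either (0.149).

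Tmod4, a tropomodulin that caps thin filaments in skeletal muscle, was at 1952 and 1342 in the controls and 156 and 519 in the knockouts (-2.51, limma adjusted p = 0.00107). Ces1d, a carboxylesterase that hydrolyzes lipids, was at 7431 and 7213 against 352 and 3872 (-2.65, adjusted p = 0.041), so that most of its change came from knockout 1, and its adjusted p without that array was 0.615. Gpr22, an orphan receptor of the heart, was at 1337 and 994 against 159 and 407 (-2.18, adjusted p = 0.00113). Whrn, Ctf1 (the cytokine cardiotrophin 1), Abhd18, Tha1, Ephb1 and Ap1g2 had changes of -2.04 to -1.89 on the log2 scale. Dimmer probes above the median probe gave -0.0394 for Ap1g2 and 0.104, -0.945 and -0.853 for Ephb1.

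The largest increase was in Nmrk2, the muscle nicotinamide riboside kinase that makes NAD from its vitamin precursor. It had an intensity of 172 in control 1, 1563 in control 2, 22764 in knockout 1 and 9270.4 in knockout 2. Both knockouts exceeded both controls, although the controls themselves differed widely. The change was 4.81 on the log2 scale (SE 0.73, limma adjusted p = 0.00107). A second probe gave 4.13 and a dimmer one -1.27, so the 3 probes of Nmrk2 did not read the same. Without control 1 the adjusted p was 0.0969.

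Among the other large increases, Tubb2b, a tubulin of growing and immature cells, rose from 357 and 643 to 5294 and 1598 (2.60, limma adjusted p = 0.000553). Thoc6, a subunit of the THO complex that exports mRNA, rose from 508 and 937 to 3479 and 2544 (2.11, SE 0.28, adjusted p = 0.000428). Bcl2, which blocks apoptosis, rose from 154 and 215 to 988 and 439 (1.85, adjusted p = 0.00257, but 0.166 without control 1 and 0.058 without knockout 1). Knockout 1 was the higher knockout in all of these, and in none did the groups overlap.

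Asns, the asparagine synthetase, was the exception in order, with 476 and 802 in the controls, 1389 in knockout 1 and 3099.7 in knockout 2 (1.75, limma adjusted p = 0.0253). Krt18, a keratin of simple epithelia, stood at 76 and 133 in the controls and at 1413 and 227 in the knockouts (2.49, adjusted p = 0.0151, but 0.246 without knockout 1). Chil1, a secreted chitinase-like protein of inflamed tissue, was at 70.9 and 82.6 against 649.8 and 277 (2.47, adjusted p = 0.000428). Dusp4, a phosphatase of MAP kinases, was at 88.7 and 137 against 1103 and 335 (2.46, adjusted p = 0.00103). The control values of Krt18, Chil1 and Dusp4 were close to the median probe, where background makes up an unmeasured part of the signal. Trmt10a, Itgbl1, Gask1b, Slc9a3, Col8a1, Auh and Tspan17 were higher by 1.62 to 1.99. A dimmer Auh probe, also above the median probe, gave -0.0331.

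**Figure D2:**
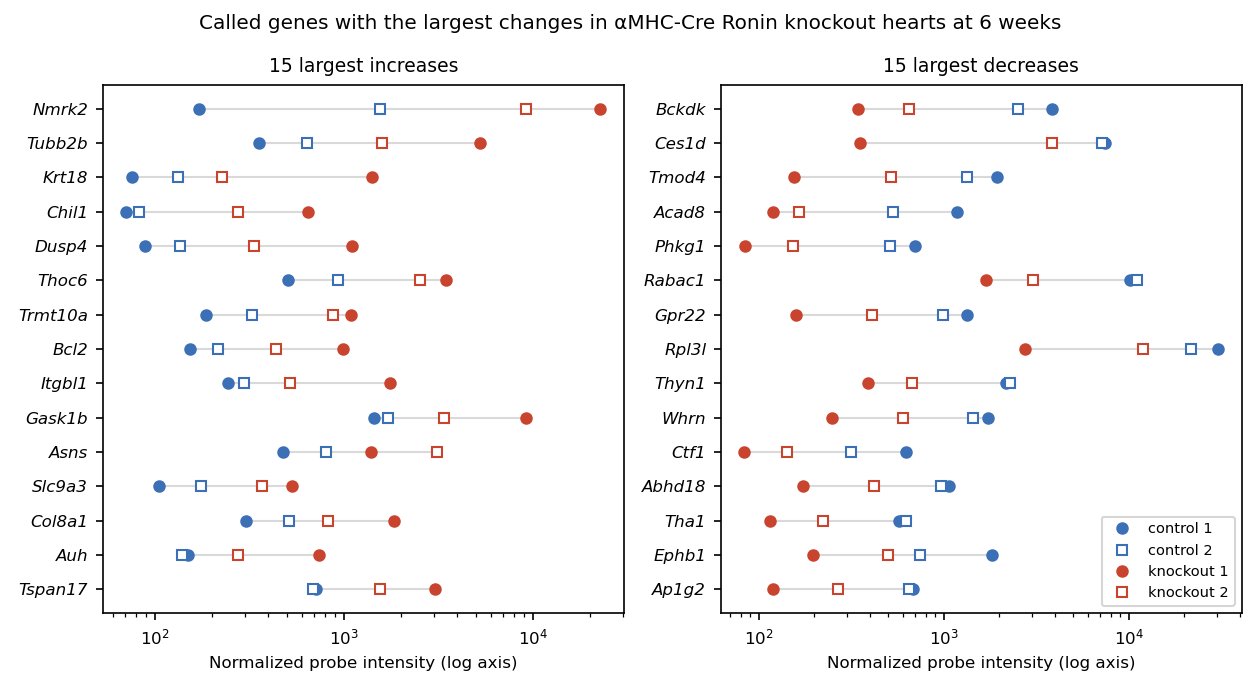
Intensity (linear values on a log axis) of the 15 called genes with the largest increase and the 15 with the largest decrease at 6 weeks, in control 1 (filled blue circles), control 2 (open blue squares), knockout 1 (filled red circles) and knockout 2 (open red squares). Knockout 1 is the farthest array from the controls in nearly every gene. The genes were picked from called genes whose groups do not overlap.

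The isoforms of the contractile apparatus changed in a few genes. Acta2, the smooth muscle actin that fetal heart muscle and activated fibroblasts also make, rose from 13548 and 16365 to 58946 and 35637. The change of 1.62 (SE 0.19, limma adjusted p = 0.000162) was the increase that held without any array, and 3 further bright probes gave 1.86, 1.92 and 2.14. A dimmer Acta2 probe, also above the median probe, gave 0.338. Acta1, the skeletal actin of the fetal heart, was at 8402 in control 1, 22688 in control 2, 40786 in knockout 1 and 40004 in knockout 2 (1.55, limma adjusted p = 0.0223). The 2 knockouts were level and the 2 controls were not, and the adjusted p of Acta1 was 0.977 without control 1 and 0.152 without knockout 1. These were the calls among 20 tested isoforms of myosin, actin and troponin (2 higher, 0 lower, median change 0.13), where 0.717% of all genes rose and 1.05% fell.

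Myh7, the slow myosin heavy chain of the fetal heart, was at 401 and 307 in the controls, 3467 in knockout 1 and 485 in knockout 2. Its change of 1.89 did not pass the test (limma adjusted p = 0.109) and was nearly all in knockout 1, as it was at 2 dimmer probes. Myl9 had the same pattern, at 721 and 399 against 5135 and 450 (1.5, adjusted p = 0.36). Myh6, the adult myosin heavy chain, was at 52401 and 46221 in the controls and 51477 and 49556 in the knockouts (0.037, adjusted p = 0.999), near the top of the arrays.

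The genes of load stress lay higher without most of them passing the test. Of 19 tested genes 2 rose and 0 fell, where 0.717% of all genes rose and 1.05% fell. A change above 0 was found in 15 of the 19, against 53% of all genes, and the median was 0.66 against 0.016 over all genes. The controls themselves lay apart, with list medians of -0.352 in control 1 and 0.352 in control 2 from their mean. Those of knockouts 1 and 2 were 0.999 and 0.786. With an array left out, the fitted median ranged from 0.403 to 0.999. Uck2, a uridine-cytidine kinase, rose from 1878 and 2854 to 6795 and 4155 (1.20, limma adjusted p = 0.0253). Rcan1, the calcineurin regulator that calcineurin signaling itself induces, rose from 2474 and 4509.7 to 10543 and 5779 (1.23, adjusted p = 0.0289). Without control 1 or without knockout 1 none of the 19 was called, without control 2 there were 4, and without knockout 2 there were 7 higher and 1 lower.

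Nppa, the atrial natriuretic peptide, had 15695 in control 1, 44913 in control 2, 53256 in knockout 1 and 54578 in knockout 2 (1.02, limma adjusted p = 0.152). Nppb, the peptide released by stretched ventricle, had 13535 and 30483 against 36619 and 44374 (0.99, adjusted p = 0.38). In both genes control 1 was the array apart, and Nppa lay near the top of the intensity range in the other three. Ccn2, the connective tissue growth factor, was at 3721 and 12269 against 31249.9 and 21599.9 (1.94, adjusted p = 0.0669).

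Genes of the extracellular matrix and fibrosis shared this direction. Of 43 tested genes 4 rose and 0 fell, where 0.717% of all genes rose and 1.05% fell. A change above 0 was found in 40 of the 43, against 53% of all genes, and the median was 0.65. Timp1, an inhibitor of matrix metalloproteinases, was at 296 and 434 in the controls and 1231 and 871 in the knockouts (1.53, limma adjusted p = 0.00104). Col8a1, a short-chain collagen of vessels and scars, was at 305 and 515 against 1854 and 824 (1.64, adjusted p = 0.014). Col14a1, a collagen that binds fibrils, was at 102 and 162 against 299 and 284 (1.18, adjusted p = 0.0136), and Tgfb2, a growth factor that drives matrix synthesis, at 152 and 249 against 644 and 362 (1.31, adjusted p = 0.0292). No group overlapped in these 4 genes. They lost their calls without control 1, where none of the 43 was called, and 1, 5 and 15 genes were higher without knockout 1, control 2 and knockout 2. The median stayed between 0.56 and 0.85 through these omissions.

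The summed intensity of 11 tested fibroblast markers was 19353 and 24319 in the controls and 25064 and 28385 in the knockouts, with none called. Their part in the rise of the matrix genes was not tested. Among 20 smooth muscle and myofibroblast genes Acta2 was the 1 that rose, and the median was 0.19, where 0.717% of all genes rose and 1.05% fell. The sums of macrophage markers (19815 and 20822 against 16879 and 25075), endothelial markers 21660 and 17751 against 27242 and 16256), lymphocyte markers (1649 and 2069 against 2673 and 2149), neutrophil and mast cell markers (729 and 700 against 891 and 635), mural cell markers (4838 and 3895 against 3266 and 3235), adipocyte markers (1772 and 2458 against 4361 and 2491) and blood markers (119365 and 91367 against 100288 and 57632) held no called gene. Atrial and valve markers summed to 21756 and 55492 against 60659 and 59006, mostly as Nppa, and skeletal muscle markers to 1230 and 1677 against 545 and 1204, without a call. Krt18 was the 1 called gene of 4 epicardial markers (sums 353 and 560 against 1879 and 653). Dbh, the noradrenaline-making enzyme of sympathetic nerves, was the 1 of 3 markers of Schwann cells and neurons that fell, from 458 and 156 to 90.7 and 95.3 (-1.53, limma adjusted p = 0.0238; 0.985 without control 1).

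Electrical conduction was among the lists that lay lowest. Of 31 tested genes 0 rose and 2 fell, where 1.05% of all genes fell. A change below 0 was found in 28 of the 31, against 5506 of all 11708 genes, and the median was -0.39. Kcnip2, the subunit that gives the transient outward potassium current its size, was at 1235 and 736 in the controls and 427 and 520.1 in the knockouts (-1.02, limma adjusted p = 0.0322). Cntn2, an adhesion protein of conduction cells, was at 180 and 163 against 90.5 and 80 (-1.01, limma adjusted p = 0.0488). Its knockout values were close to the median probe. Both calls were lost without control 1 (0 of 31) and without knockout 1 (0 of 31), 1 was left without control 2, and 5 genes were lower without knockout 2. The list's median stayed between -0.48 and -0.29 in all 4 omissions.

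Of the conduction genes that missed the threshold, Scn4b, a sodium channel subunit, was at 402 and 330.3 against 85.4 and 221 (-1.41, limma adjusted p = 0.0753), Kcnv2 at 227 and 293 against 92.7 and 209 (-0.89, adjusted p = 0.0769), and Kcnh2 at 1494 and 860 against 672 and 571 (-0.87, adjusted p = 0.358). The groups did not overlap in these 3 genes, which says little, since an exact permutation test of 2 arrays against 2 cannot go below 0.333. The gap junction proteins Gja1 (24753 and 19867 against 23241 and 20234) and Gja5 (325 and 259 against 364 and 212) had overlapping groups. So did Kcnq1 (94.3 and 105.6 against 65.9 and 112.9), whose values were close to the median probe. The median over 28 genes of calcium handling was -0.22, but between -0.143 and -0.0958 with any array left out. Of the genes in this list 0 were called. Within it Atp2a2, the calcium pump of the sarcoplasmic reticulum, was at 50072 and 53147 against 52545 and 51176, near the top of the arrays, Pln at 12764 and 15909 against 7738 and 17187, Ryr2 at 12724 and 10458 against 9082 and 10128, and Hrc at 18858 and 17810 against 4746 and 13199.8. Of 33 structural sarcomere genes none was called and the median was 0.058, with Ttn at 18332 and 14693 against 23719 and 14949.5.

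The genes of fatty acid uptake and oxidation lay lower almost without exception. Of 41 tested genes 0 rose and 2 fell, where 1.05% of all genes fell. A change below 0 was found in 40 of the 41, against 5506 of all 11708 genes, and the median was -0.39. Etfdh, which passes electrons from fatty acid and amino acid oxidation to ubiquinone, had 9889.7 and 8508 in the controls and 1912 and 3911 in the knockouts (-1.75, SE 0.28, limma adjusted p = 0.00159), and its 3 dimmer probes were lower too. Acaa2, the thiolase of the last step of β-oxidation, had 19647 and 10986 against 2959 and 7729 (-1.62, adjusted p = 0.0245). The groups did not overlap in either. Without control 1 neither was called (0.104 and 0.813), without knockout 1 Acaa2 was not (0.498), and without knockout 2 there were 8 lower genes of the 41. The median ranged from -0.56 to -0.22 over the 4 omissions.

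The regulators of this list and the transporter Cd36 were not called. Ppargc1a, the coactivator of mitochondrial genes, was at 916 and 2567 in the controls and 596 and 2824 in the knockouts, with overlapping groups. Ppara, the receptor that drives fatty acid genes, was at 151 and 169 against 116 and 139.6 (-0.33, limma adjusted p = 0.571). Cd36, the fatty acid transporter, was at 127 and 292 against 95.2 and 264. The values of Ppara, and those of Cd36 in control 1 and knockout 1, were not far above the median probe. Background makes up an unmeasured part of such a signal.

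The respiratory chain held few calls, where 0.717% of all genes rose and 1.05% fell. Of 40 complex I genes 1 fell and 0 rose, with a median of -0.23 and 37 below 0, against 5506 of all 11708 genes. The called gene was Ndufa3, at 33609.5 and 25971 in the controls and 13510.1 and 16307 in the knockouts (-0.99, limma adjusted p = 0.0221), and it was called in no omission but that of knockout 2. Of 54 genes of complexes III and IV and ATP synthase 1 rose and 2 fell, with a median of -0.14. Coa3 was 1 of them. Uqcr10, a small subunit of complex III, was at 46059.6 and 44605 against 15747 and 23289 (-1.24, adjusted p = 0.000428), with -1.27 at its second probe. Both Uqcr10 knockout arrays lay far below both controls, which were nearly level, and its adjusted p without control 1 was 0.0514. Cox19, a copper chaperone of cytochrome c oxidase assembly, rose from 3603 and 3597 to 9239 and 5002 (0.92, adjusted p = 0.0498), a call that was also lost in every omission but that of knockout 2.

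In the machinery that builds mitochondrial proteins, 2 of 74 mitochondrial ribosome genes fell and 0 rose, against a median of -0.071. Over all genes 0.717% rose and 1.05% fell. Mrpl34 was at 4967 and 3845 in the controls and 955 and 1598 in the knockouts (-1.82, limma adjusted p = 0.000428; 0.0593 without control 1). Mrpl24 was at 2083 and 2109 against 535 and 832 (-1.65, adjusted p = 0.00103; 0.0593 without control 1). For the other 72 ribosome genes neither direction passed.

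Of 43 genes for mitochondrial DNA, translation and the inner membrane, 1 rose and 2 fell (median -0.070), where 0.717% of all genes rose and 1.05% fell. Mtrf1, a release factor of mitochondrial translation, fell from 760.4 and 681 to 209.6 and 311 (-1.49, limma adjusted p = 0.00257), and Letm1, an ion exchanger of the inner membrane, from 1716 and 1804 to 769 and 937 (-1.05, adjusted p = 0.0234). Chchd6, which shapes the cristae, rose from 439 and 587 to 1355 and 1138 (1.29, adjusted p = 0.00983). None of the 3 was called without control 1 or without knockout 1, and Letm1 was not called without control 2 (0.225).

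Of 14 genes of coenzyme Q synthesis 2 fell (median -0.25), where 1.05% of all genes fell. Fdps, which makes farnesyl pyrophosphate for the side chain and for cholesterol, was at 1010.3 and 867 against 367 and 455 (-1.20, limma adjusted p = 0.00189), and Adck1 at 622 and 525 against 249 and 288 (-1.09, adjusted p = 0.0106). Of 33 genes of the TCA cycle and pyruvate entry, 27 lay below 0 (median -0.26), against 5506 of all 11708 genes. The 1 called was Pdp2, the phosphatase that activates pyruvate dehydrogenase, which fell from 2445 and 2336 to 777 and 1647 (-1.08, limma adjusted p = 0.0223). Without control 1 none of these was called, and Adck1 and Pdp2 were called in no omission but that of knockout 2. Of 21 genes of ketone, branched-chain amino acid and creatine use, the 2 calls were Bckdk and Acad8 (median -0.15).

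Genes of mitochondrial and amino acid stress gave few calls in either direction, where 0.717% of all genes rose and 1.05% fell. Of 21 genes of mitochondrial stress 1 rose: Htra2, a protease of the space between the mitochondrial membranes, which was at 758 and 757 in the controls and 1854 and 1492 in the knockouts (1.14, limma adjusted p = 0.00402). Its adjusted p was 0.143 without control 1, 0.0592 without control 2 and 0.058 without knockout 1. Among 34 genes of the integrated stress response and amino acid synthesis 1 rose, Asns, and 1 fell, Gpt2, the mitochondrial alanine aminotransferase, which was at 673 and 666 against 102 and 350 (-1.83, adjusted p = 0.029). The list had a median of 0.21. Mthfd2, the folate enzyme of mitochondria, was at 333 and 713 against 817 and 2839 and missed the threshold (1.65, limma adjusted p = 0.0794). Fgf21 was at 73.9 and 77.3 against 80.3 and 118.4, all close to the median probe. Asns was not called without control 1 (0.798), control 2 (0.0553) or knockout 2 (0.104), nor Gpt2 without control 1 (0.436), control 2 (0.189) or knockout 1 (0.565).

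In NAD synthesis and use, Nmrk2 was the 1 of 22 genes that rose, where 0.717% of all genes rose and 1.05% fell. Sirt4, a mitochondrial sirtuin, was the 1 that fell, from 547 and 642 to 197 and 377 (-1.12, limma adjusted p = 0.0372), against a list median of -0.10. Nmrk2 lost its call without control 1, and Sirt4 in every omission but that of knockout 2. Nampt, the enzyme of the main salvage route, had a change of -0.71 that did not pass (adjusted p = 0.337). Phkg1 was the 1 call among 24 genes of glycogen (median 0.033), and Bcl2 the 1 among 22 p53 targets and cell death genes (median 0.0016). None of 21 genes of glycolysis (median 0.19), 33 tRNA synthetases (0.19), 27 genes against oxidative damage (0.14) or 23 cell cycle genes (0.12) was called. Among 20 genes for Ronin, Hcf-1 and their partners, Thap11 was the 1 called (median -0.059), and its relative Thap4 had 1966 and 1950.1 against 1038 and 1020.3 (-0.93, adjusted p = 0.414).

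**Figure D3:**
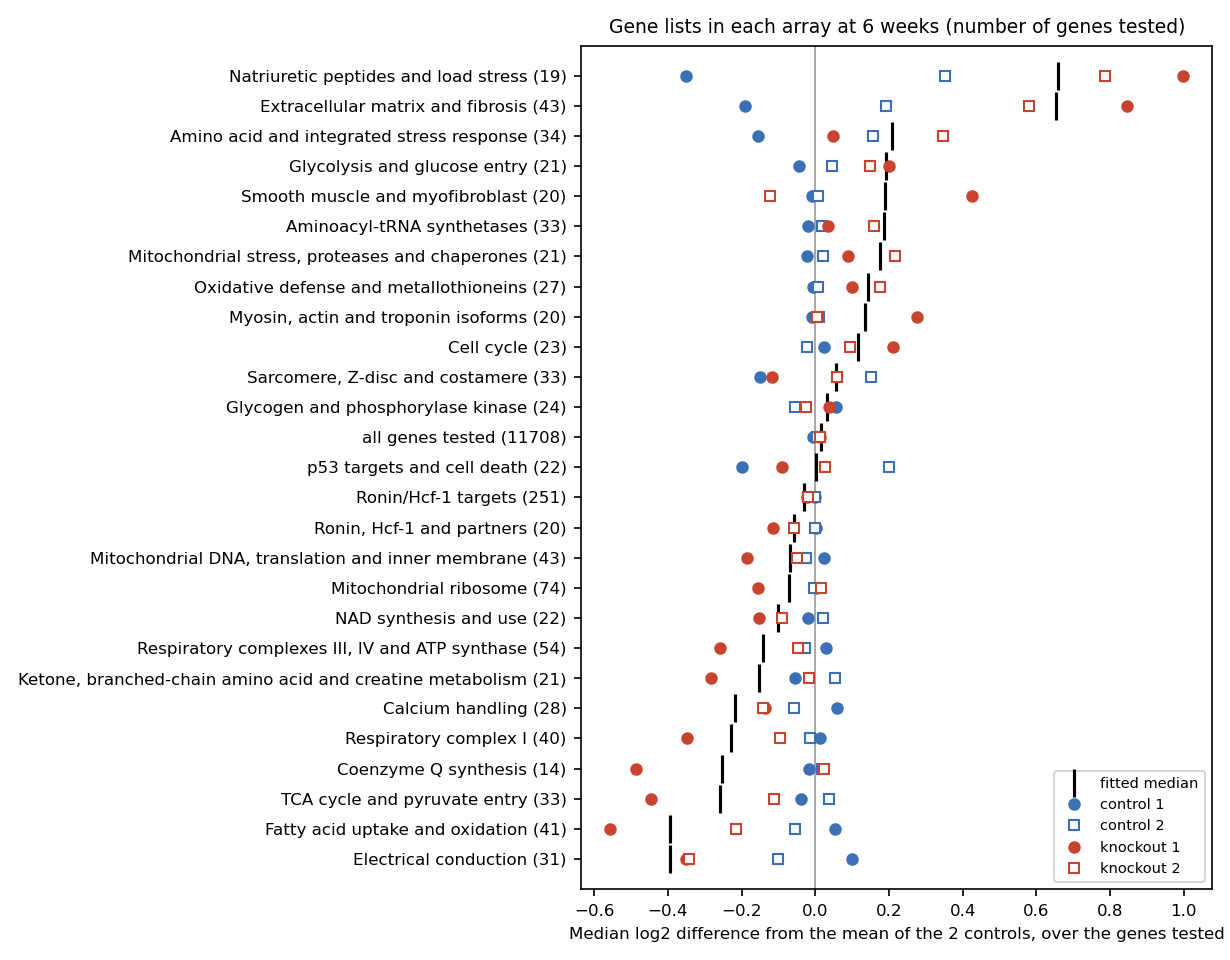
Median log2 difference from the control mean over each gene list at 6 weeks, for each of the 4 arrays (points) and as fitted (black bar), with all tested genes and the Ronin and Hcf-1 targets for comparison. Load stress and extracellular matrix lie highest (0.66 and 0.65), and fatty acid oxidation and conduction lowest (both -0.39).

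The study's list of joint Ronin and Hcf-1 targets, made from chromatin of E11.5 hearts and not from these arrays, has 341 genes, of which 251 were tested here. Of these, 3 were higher and 15 lower, and their median change was -0.030 against 0.016 over all genes, with 112 above 0 and 139 below. Over all genes 0.717% were higher and 1.05% lower. Thyn1, Rabac1, Mrpl34, Acad8, Ctf1, Etfdh, Fdps, Adck1 and Thap11, the deleted gene itself, were among the lower ones. So were Apba3, an adaptor protein (2242 and 1475 against 434 and 572, change -1.87, limma adjusted p = 0.00107), and Gtf2h4, a subunit of the transcription and repair factor TFIIH (594 and 598 against 183 and 238, change -1.51, adjusted p = 0.00172). The 3 higher targets were Thoc6, Htra2 and Chchd6. Over the 4 omissions the count of higher targets ranged from 0 to 11 and that of lower targets from 2 to 19, the lowest without control 1 and the highest without knockout 2. The wider set of Ronin-bound genes (399 listed, 293 tested) held the same numbers of calls, 3 and 15, with a median of -0.018.

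The promoters of the called genes were then searched for the Ronin motif, since the list of targets comes from the hearts of embryos. Sequences were RefSeq promoters of the build GRCm38.p6, reaching from 250 bases before to 50 after the start of each gene, and both strands were searched. The windows below show the motif in capitals and are read along the strand of the gene named, for Rabac1 and for genes of metabolism and mitochondria, all of which fell. Bckdk lies at chr7:127904017-127904053 on the plus strand, Coa3 at chr11:101278990-101279026 on the minus strand, the farther of 2 copies in Rabac1 at chr7:24972807-24972843 on the minus strand, Etfdh at chr3:79628920-79628956 on the minus strand, Mrpl24 at chr3:87919395-87919431 on the plus strand and Ndufa3 at chr7:3617276-3617312 on the plus strand. Mrpl34 has 3 copies, of which the nearest to the start is at chr8:71464901-71464937 on the plus strand.
Bckdk: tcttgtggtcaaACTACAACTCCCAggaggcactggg
Coa3: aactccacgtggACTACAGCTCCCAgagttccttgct
Rabac1: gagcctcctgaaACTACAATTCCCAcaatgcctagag
Etfdh: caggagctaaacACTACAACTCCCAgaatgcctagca
Mrpl24: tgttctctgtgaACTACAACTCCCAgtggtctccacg
Ndufa3: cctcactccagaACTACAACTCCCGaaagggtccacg
Mrpl34: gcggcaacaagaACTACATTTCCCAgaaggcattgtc
The first base of the motif is 44 bases before the start of Bckdk, 66 before that of Coa3, 103 before that of Rabac1, 177 before that of Etfdh, 137 before that of Mrpl24, 85 before that of Ndufa3 and 13 before that of Mrpl34. A match in the letters is not a measured binding site.

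Of the 123 lower genes 101 had a promoter entry, and 32 of these (31.7%, Wilson 95% interval 23.4 to 41.3) held the motif. It was in a promoter of 521 of the 9441 tested genes with an entry (5.52%, 5.08 to 6). Counted by promoter and not by gene, a different unit, it was in 746 of 32851 promoters of any gene (2.27%). Of the targets tested it was in 128 of 206 (62.1%, 55.3 to 68.5). Motif and target list come from the same chromatin data, so a high share of targets was built in and is no independent measure. Of the 84 higher genes 67 had a promoter entry, and 3 of these held the motif (4.48%, 1.53 to 12.4). They were Chchd6, Ciao1 and Zranb3. This count is too small to be set against the share of all tested genes. The intervals cover counting error over genes only, and genes that share a promoter are not independent. Of the 187 motif copies in the promoters of targets, at least 75% shared each letter of the core ACTACANNTCCCA. The motif as searched already fixes the ACTA and CCC of this core, so every copy has those letters. With this core in place of the full motif, searched on both strands and chosen after the data were seen, the shares were 24.8% of the lower genes (17.4 to 34), 3.69% of those tested, 50.5% of the targets and 1.47% of all promoters.

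**Figure D4:**
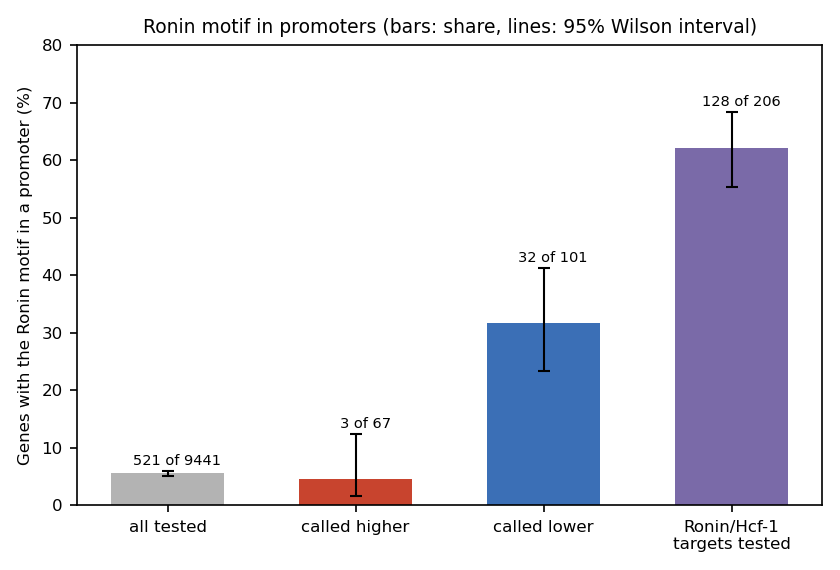
Share of genes with the Ronin motif in a promoter (percent, bars from 0, with Wilson 95% intervals) among all tested genes, genes called higher, genes called lower and tested Ronin and Hcf-1 targets. The lower genes (31.7%) stand above all tested genes (5.52%) and below the targets (62.1%). The bar of the higher genes rests on 3 genes with a motif. The motif and the target list come from the same chromatin data, so the share of targets is no independent measure.

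Read from the side of the motif, the 521 genes with it included 3 higher and 32 lower ones, 6.14% of them lower, with a median change of -0.059. The 8920 genes without it included 64 higher and 69 lower ones, 0.774% lower, with a median of 0.019. Most genes with a motif were thus not called. Of the 35 called genes with a motif 10 were on the target list, and 23 of the lower ones were not, Bckdk, Coa3, Uqcr10, Mrpl24 and Ndufa3 among them. The 32 lower genes and the 10 targets include Thap11, the deleted gene itself.

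Promoters that serve a pair of genes on opposite strands gave a closer view. Thyn1 and Acad8 share 1 such stretch, and both fell (-2.12 and -2.49). It holds 2 copies, at chr9:26999563-26999599 and chr9:26999626-26999662, shown here on the plus strand along which Thyn1 is read.
Thyn1, far copy: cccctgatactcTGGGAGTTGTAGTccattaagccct
Thyn1, near copy: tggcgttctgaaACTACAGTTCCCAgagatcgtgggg
The 2 copies point in opposite directions, and they lie 102 and 39 bases before the start of Thyn1. Uqcr10 shares a stretch with Zmat5, a zinc finger gene outside the rule for naming that was picked after its values were seen. Zmat5 fell as well, from 994 and 607 to 312 and 311 (-1.32, SE 0.23, limma adjusted p = 0.00343; 0.328 without control 1). The copy that both promoters contain is at chr11:4704552-4704588, on the plus strand as follows.
Zmat5 and Uqcr10: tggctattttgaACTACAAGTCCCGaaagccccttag
In 5 other pairs the partner was not called, whichever way its neighbor went: Tmem127 beside Ciao1 (0.17), 4930579G24Rik beside Etfdh (-0.21), Rpgrip1l beside Fto (0.11), Ccdc163 beside Mmachc (-0.68) and R3hdm1 beside Zranb3 (-0.22), all named after their values were seen.

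The Thap11 promoter also holds a match, 18 bases before its start, at chr8:105855073-105855109 on the plus strand. Read along the gene, it points the opposite way to the copies of Bckdk, Coa3 and the other genes shown first.
Thap11: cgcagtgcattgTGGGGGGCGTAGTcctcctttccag

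The αMHC-Cre knockouts had also been measured at birth (P0), with 2 arrays a group that share none with those of 6 weeks. The authors normalized each age on its own, so levels are not set against each other across ages, only changes. At P0 limma called 0 genes in either direction, with 257 higher and 239 lower at an unadjusted p below 0.05. Of the genes lower at 6 weeks and tested at P0, 101 of 114 already had a change below 0 there, with a median of -0.19, while 48.9% of all genes lay above 0 and their median was -0.0047. Of the higher genes 52 of 78 lay above 0 at P0 (median 0.076). In the Nkx2.5-Cre hearts of E11.5, where Ronin is lost across the early heart, 88 of 101 of the lower genes lay below 0 (median -0.37, against -0.019 over all genes), and in the αMHC-Cre hearts of E11.5 it was 72 of 102 (median -0.092). The lower genes with a motif had medians of -0.35 at P0 and -0.84 in the Nkx2.5-Cre hearts of E11.5, and those without one -0.11 and -0.12.

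The change differed between 6 weeks and P0 in 28 genes, with 11 above 0 (0.1% of 10956) and 17 below (0.155%) at a limma adjusted p below 0.05 of the difference itself. Thyn1 had 3555 and 4228 in the P0 controls and 3388 and 3715 in the P0 knockouts, a change of -0.13, and the 2 ages differed by -1.99 (adjusted p = 0.00776). Bckdk had 3851 and 3570 against 2692 and 3176 at P0 (-0.34), with a difference of -2.38 (adjusted p = 0.009). Phkg1 (-1.85, adjusted p = 0.00776) and Rabac1 (-1.76, adjusted p = 0.0295) differed likewise. For Rabac1 the P0 change was already -0.47, with 12601 and 11584 against 8891 and 8563.

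Among the genes whose change was more positive at 6 weeks, Acta2 was at 61237 and 60738 against 62630 and 59062 at P0, near the top of those arrays, where a rise could hardly be measured, and the difference was 1.63 (limma adjusted p = 0.00776). Tubb2b was at 19324 and 24765 against 20797 and 19755 at P0 and differed by 2.71 (adjusted p = 0.0154). Nmrk2 was at 947 and 2104 against 1236 and 1349.6 (4.93, adjusted p = 0.037), Chil1 at 123 and 128 against 137 and 138 (2.35, adjusted p = 0.0268), and Rpl3 at 34945 and 33397 against 34893 and 33942 (0.99, adjusted p = 0.0268). At P0 the groups overlapped in each of these genes but Chil1. Of the 28 genes none was called in all 4 omissions of a 6-week array, and Thyn1, Phkg1 and Acta2 were called in 3. Thap11 was not among the 28, with a P0 change of -0.41 against -1.61.

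**Figure D5:**
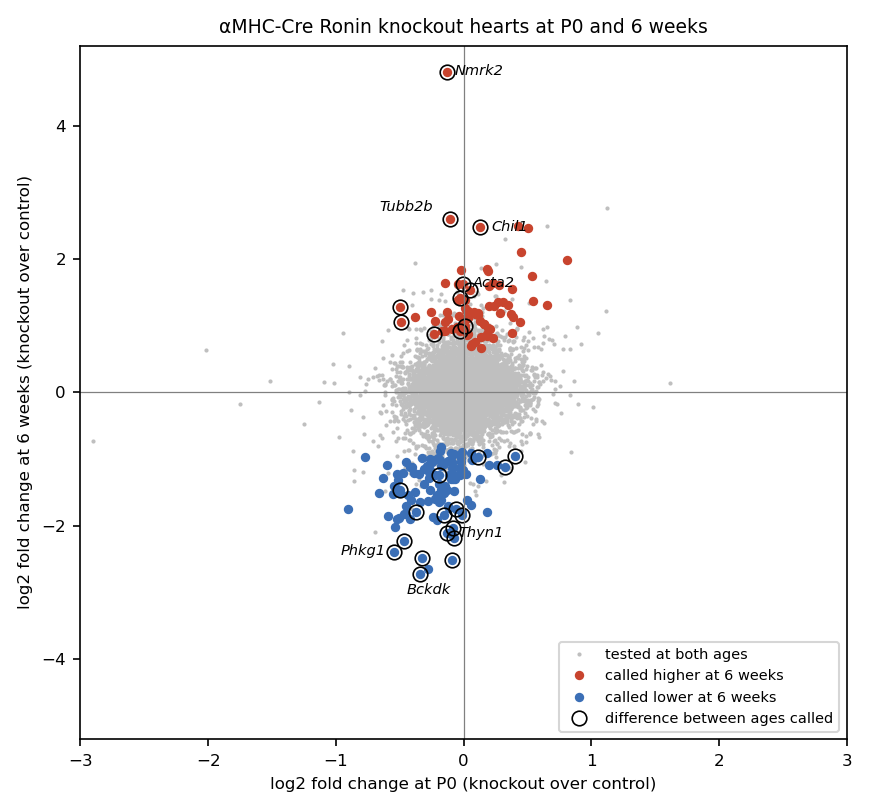
Log2 change in αMHC-Cre Ronin knockout hearts at P0 (horizontal) against that at 6 weeks (vertical) for each gene tested at both ages, with genes called higher at 6 weeks in red, genes called lower in blue and genes whose difference between the ages was called ringed in black. The colored genes were picked by their change at 6 weeks, so their wider spread along the vertical axis follows from that choice. The lower genes lie mostly left of 0 (101 of 114).

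The lists that stood out at 6 weeks were flat at birth. The median change at P0 was -0.018 for load stress, 0.029 for the extracellular matrix, 0.011 for fatty acid oxidation and 0.031 for conduction, and over the gene lists other than cell type and sex markers it lay between -0.15 and 0.11. At P0 the sex markers were not even between the groups. Xist was at 2244 and 91.5 in the controls and 348 and 72.1 in the knockouts, and Eif2s3y at 488 and 3069 against 2835 and 4954, and their part in the difference between the ages was not tested.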

How the data were processed

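RNA of 22 heart samples in 10 groups was measured on Illumina mouse BeadArrays. Per the labels, total RNA was purified with an RNeasy kit and DNase. The deposited values are linear intensity values that the authors made by cubic spline normalization in GenePattern, per comparison, and whether background had been subtracted is not given in the sources used here. A further deposited table of scanner values was not used, since its 22 sample columns match no label. Probes were named from the GEO platform annotation: of 45281 probes 34885 named 1 gene, 18 several and 10378 none.

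Intensities were taken to log2. The brightest probe stood for a gene, the probe being above the median probe of the comparison. All 22 arrays were fitted with limma 3.58.1 (R 4.3.3, statmod 1.5.0) as 10 group means, with array weights per comparison, an intensity trend and 12 residual degrees of freedom, over 13544 genes. P-values were adjusted by Benjamini-Hochberg over all genes tested, with calls at 0.05. The difference between 6 weeks and P0 was a contrast of the same fit. For genes named in the text, array means and errors come from these fits, and 2 arrays per group limit their precision. The scripts were tested on simulated data. Python 3.11.15, pandas 2.3.3, scipy 1.17.1 and matplotlib 3.10.9 were used for tables, intervals and plots.

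The genes named were Thap11, the 15 largest increases and 15 largest decreases among called genes, up to 6 called and up to 4 further members of each list by lowest p, 24 marker genes, up to 10 genes called without any array, the 6 lowest p per direction of the difference from P0, and up to 10 called Ronin and Hcf-1 targets. Some of the markers were not analysed here. The members and lists were chosen with earlier results of these data known. The alternatives were quantile normalization, median scaling, a fit of these 4 arrays alone, equal array weights, no intensity trend, a stricter or no filter on dim probes, probe means per gene, every probe on its own, the replicate number as a block, the t-test that the methods name, and each array left out. The authors' tables of fold changes were not used.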

Additional observations from a re-analysis of the deposited data

Results flagged for a closer look

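Between 6 weeks and P0 the change in αMHC-Cre Ronin knockouts differed by a test of the difference itself, a limma contrast adjusted over all genes, in 11 genes with a more positive change at 6 weeks and in 17 genes with a more negative one. Of the first, Nmrk2 (4.93), Tubb2b (2.71), Chil1 (2.35), Adamtsl2 (1.78) and Acta2 (1.63) had the greatest differences on the log2 scale, although Acta2 was near the top of the P0 arrays in both groups, where a rise could hardly be measured. Of the second, Tmod4 (-2.42), Bckdk (-2.38), Acad8 (-2.16), Gpr22 (-2.10) and Thyn1 (-1.99) had. Of these 17 genes, Tmtc1, Nckap5 and Pla2g5 had P0 changes above 0 (0.41, 0.33 and 0.11) beside falls at 6 weeks. Tmtc1 had the greatest of the P0 changes (from 160 and 135 in the P0 controls to 195 and 195 in the P0 knockouts), and its difference was -1.37. Among the 11 genes with a more positive change, Adamtsl2, LOC100041504 and Mif had the lowest P0 changes (-0.49, -0.49 and -0.23). At 6 weeks these 3 genes rose by 1.28, 1.05 and 0.87, so part of their difference lay at P0. Sex marker levels were uneven between the P0 groups, and their part was not tested. The groups of 2 arrays were too small for a search for single outlying arrays.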

How the results depend on the processing

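The 69 called genes that could be named kept their direction under the other normalizations, weights, trend, filters, probe means and block and with each array left out, wherever they were tested. Of 63 other bright probes of these genes, 59 had the same sign. The counts of higher and lower genes moved both with the estimate of spread and with the array left out. With equal array weights 290 were higher and 312 lower, and with these arrays fitted alone 0 and 0 (limma, 483 and 488 at an unadjusted p below 0.05). The methods' t-test gave 269 and 266 before and 0 and 1 after Benjamini-Hochberg adjustment. A stricter filter on dim probes left 51 higher genes. Quantile normalization gave 84 and 123, and median scaling 82 and 124. Leaving out an array gave 1 to 393 higher and 8 to 358 lower genes, and 89 to 355 and 90 to 354 over 2-fold without overlap, of which the mean of a gene's probes left 105 lower.

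With the replicate number as a block, 252 genes were higher and 275 lower, including all 84 and 123. The numbers pair no animals by the labels, but at 6 weeks they go with the sex markers in both groups, so the block cannot be told apart from a block by sex. Deviations of same-numbered arrays correlated at 0.352, with 2 pairs. The genes whose change differed between the ages (11 above 0 and 17 below) became 18 and 29 with equal weights, 6 and 8 without the intensity trend, 5 and 3 with the stricter filter, 6 above 0 with the mean of probes, 18 and 26 with the replicate block, and 0 to 180 and 0 to 156 with an array left out. Of the targets, 0 and 0 were called with these arrays alone, 11 higher with equal weights, 13 higher with the block, and 0 to 11 and 2 to 19 with an array left out.

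Thap11 kept its value of -1.61 but its adjusted p was 0.338 with these arrays alone, 0.0511 without the trend, 0.0753 with the stricter filter and 0.0572 with the mean of probes. With an array left out it ran from -2.32 to -0.91.

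Of uncalled genes, Myh6 turned to -0.0039 under quantile normalization and -0.11 with the mean of probes (-0.053 to 0.13 with an array left out), and Atp2a2 to -0.089 and -0.11 (-0.035 to 0.051). With an array left out, Pln ran from -0.88 to 0.27, Kcnq1 from -0.60 to 0.18, Gja1 from -0.19 to 0.13, Gja5 from -0.46 to 0.33, Ttn from -0.13 to 0.53, Cd36 from -1.01 to 0.46 and Ppargc1a from -1.36 to 0.88. Of list medians, that of p53 targets and cell death changed sign under quantile normalization (-0.00033), median scaling (-0.0025) and the mean of probes (-0.010), as did that of the sarcomere with the mean of probes (-0.0026). These 2 and those of Ronin partners, smooth muscle, the mitochondrial ribosome, coenzyme Q and glycogen changed sign with an array left out. The cause was not tested.

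The motif share with 150 bases before the start was 1.68% of all promoters, 4.29% of the genes tested and 52.4% of the targets. Of the higher genes it was 1.49%, which is 1 gene of 67. With the core it was 1.47% of all promoters, 3.69% of the genes tested and 50.5% of the targets.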
